A study of Mus musculus with 8 samples.

Results

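Gene expression was compared between bone marrow macrophages that did not touch the tumour in myeloma-bearing mice and macrophages of naive mice. The description covers the 10122 genes, of 47643 in the deposited table, that reached at least 5 CPM (counts scaled to a common library total) in at least 2 of the 4 libraries compared. The tumour was Vk*MYC myeloma, which arises from mouse plasma cells, grows on transfer and here carried green fluorescent protein (GFP). CD138-purified tumour cells had been injected in the tibia of wild-type (WT) hosts of strain B6. Macrophages of these mice, called TAM for tumour-associated macrophages, had passed a gate of F4/80 high and CD11b low, and the GFP-negative ones were taken as not in contact with myeloma (n = 2, mouse 1 and mouse 2). Marrow macrophages of naive mice, which had no tumour, were the controls (n = 2), and all 4 samples came from WT B6 animals with no drug treatment. The sources used here do not give ages or how many animals stand behind a naive sample, and spell out the gate for TAM only. The p-values below therefore measure the spread between these samples.

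F4/80, encoded by Adgre1, and CD11b, encoded by Itgam, are surface proteins by which tissue macrophages are told apart from monocytes and granulocytes. Marrow macrophages surround developing red cells, engulf spent cells and recycle their iron, and also respond to microbes and to cytokines. A stimulated macrophage first makes immediate early transcription factors such as Fos and Egr1, then NF-kB targets, chemokines and, after interferon, a set of antiviral genes.

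The 4 libraries held 28887725 to 46873056 counts. In the order used throughout, values of TAM not in contact are given for mouse 1 and then mouse 2 (TAM library 1 and TAM library 2), and values of naive macrophages for naive 1 and then naive 2. The naive libraries resembled each other more than the TAM libraries did. Across the described genes the correlation of log2 values was 0.965 within the naive pair and 0.849 within the TAM pair, against 0.809 to 0.862 between the groups (a description over genes, which are not replicates). A 2-fold gap separated the naive libraries at 396 genes (3.91%) and the TAM libraries at 2245 (22.2%). Immunoglobulin genes took 9.13% of the counts of TAM library 2 and 0.398% to 0.632% of the others. Ribosomal protein genes took 0.113% to 0.153% of counts and 5 of 13 listed mitochondrial genes were at or under 3 counts in all 4 libraries. How reads with several genomic positions were counted is unknown, and values of both families may depend on it.

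The macrophage identity genes were present in all 4 libraries. Adgre1 stood at 1223 and 600 CPM in the TAM libraries and at 1134 and 587 CPM in naive macrophages. Csf1r, the receptor for the macrophage growth factor CSF1, stood at 3254 and 1389 CPM against 1889 and 1120 CPM. Both genes overlapped between the groups, and TAM library 1 had the highest level of each. Itgam was the exception of the sort genes. It stood at 73.0 and 84.0 CPM in the TAM libraries and at 245 and 331 CPM in naive macrophages, a log2 fold change of -1.74 ± 0.28 (SE, adjusted p = 0.219). No other of the 12 sort and identity genes lay beyond the naive libraries on the same side in both TAM libraries, and Itgam is the gene of one of the sorting antigens.

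No single gene passed the main test. edgeR's quasi-likelihood test called 0 of 15522 genes (0.0%) at a Benjamini-Hochberg adjusted p under 0.05, with a smallest adjusted p of 0.183. It left 2354 genes with an unadjusted p under 0.05. DESeq2 called 677 genes higher and 570 lower, and limma-voom called 0. Among the 10122 described genes, DESeq2 called 391 higher (3.86%) and 428 lower (4.23%). When TAM library 1 was left out edgeR called 477 genes, and without TAM library 2 it called 274. These calls shared 22 genes higher and 26 lower, and 2 genes were called in opposite directions.

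Each TAM library was therefore set singly against the naive pair. A library was placed above at a gene when its CPM plus 0.5 was at least 2-fold over the higher naive library, and below when it was at least 2-fold under the lower one. Both TAM libraries were above at 196 described genes (1.94%) and both were below at 322 (3.18%). DESeq2 also called 183 of the former and 280 of the latter. At 7836 genes (77.4%) neither library left the naive range by 2-fold. Of the 196, 71 had reached 5 CPM in the TAM libraries alone, and of the 322, 98 had done so in the naive libraries alone. Genes that pass in 1 group only are selected for being higher there, and such genes numbered 124 and 206 in all. Sparc, Negr1, Timp3 and Cd276, given below, are among the 71, and Epx, Gfra4, Scd1 and Marco are among the 98. In bulk RNA, fewer cells of a type and less RNA per cell cannot be told apart.

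A larger number of genes left the naive range in 1 library only. Over all described genes TAM library 1 was above at 4.99% and below at 11.1%, and TAM library 2 above at 6.1% and below at 5.97%. TAM library 1 was below and library 2 within at 765 genes, and library 1 was above and library 2 within at 300. TAM library 2 was above and library 1 within at 383 genes, and it was below with library 1 within at 273. Over all described genes the median log2 difference from the naive mean was -0.09 in TAM library 1 and -0.16 in TAM library 2. With the scaling of the edgeR fit the median log2 fold change was 0.05, and the values below are to be read against these medians. Counts of list members below are to be read against the shares of all described genes given above, also where these are not repeated.

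**Figure D1:**
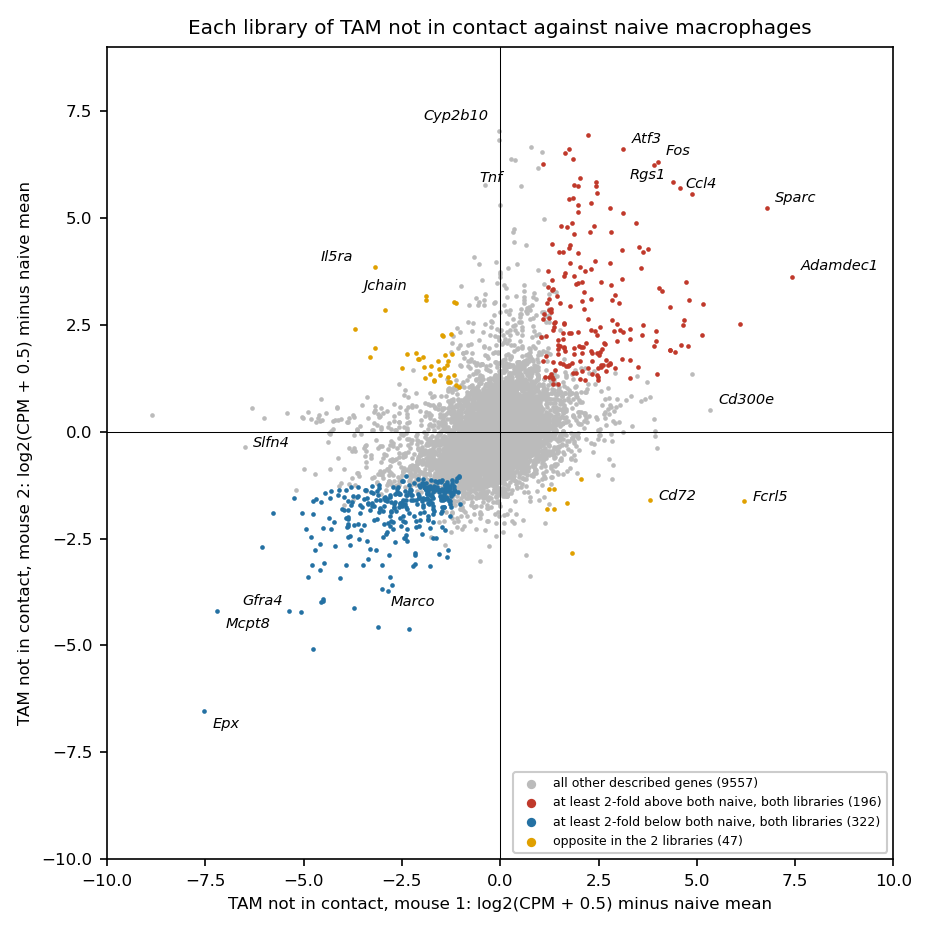
Each point is 1 of 10122 genes, with the log2 difference of TAM library 1 from the naive mean on the x axis and that of TAM library 2 on the y axis (CPM + 0.5). The 196 genes above in both libraries lie at the upper right, the 322 below in both at the lower left, and those on opposite sides (38 and 9) at the upper left and lower right.

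Among named protein-coding genes with at least 20 CPM in both TAM libraries, those with the widest gap above the naive pair were Sparc, Rgs1, Ccl4 and Fos. Sparc encodes a secreted matricellular protein that binds collagen, and lies at chr11:55394500-55423183 (GRCm38, minus strand). Its level was 181 and 61.2 CPM in the TAM libraries and 2.47 and 0.415 CPM in naive macrophages, with a log2 fold change of 6.50 ± 1.08 (SE, adjusted p = 0.219). Even the lower TAM library was 20.8-fold over the higher naive library on the CPM + 0.5 scale. Rgs1, a regulator that shortens G protein signalling from chemokine receptors, stood at 437 and 962 CPM against 22.4 and 14.3 CPM (5.38 ± 0.59, adjusted p = 0.183). Both genes were chosen for this gap, and Sparc had reached 5 CPM in the TAM libraries alone. Sparc was higher in mouse 1 and Rgs1 higher in mouse 2.

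Among the 196 genes the smaller of the 2 folds had a median of 2.87, and 53 genes passed 4-fold in both libraries. TAM library 2 was at least 2-fold over TAM library 1 at 73 of them and TAM library 1 at least 2-fold over library 2 at 37. Nupr1, a stress-induced chromatin protein, had nearly equal levels in the 2 mice, 39.58 and 39.62 CPM, against 3.90 and 5.09 CPM in naive macrophages (3.28 ± 0.47, adjusted p = 0.219). F11r, the junctional adhesion molecule JAM-A, stood at 214 and 92.5 CPM against 9.37 and 6.27 CPM (4.44 ± 0.87, adjusted p = 0.219). Negr1, a membrane-anchored cell adhesion molecule of neurons, stood at 33.1 and 49.2 CPM against 2.65 and 1.83 CPM (4.33 ± 1.45, adjusted p = 0.266).

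Immediate early genes were the list with the most members above in both libraries. Of its 26 genes 22 were described, 14 were above in both libraries and 0 below in both, against 1.94% and 3.18% of all described genes. DESeq2 called 17 of the 22 higher, against 3.86% of all described genes. Fos, a subunit of the AP-1 factor, stood at 903 and 4479 CPM in the TAM libraries and at 50.6 and 61.4 CPM in naive macrophages (5.71 ± 1.01, adjusted p = 0.219). Atf3, a stress-induced factor of the same family, stood at 120 and 1331 CPM against 16.4 and 10.6 CPM (5.86 ± 1.22, adjusted p = 0.219). For both genes the lower TAM library lay several-fold above the higher naive one.

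The size of the difference was not the same in the 2 mice. All 22 described immediate early genes were higher in TAM library 2 than in TAM library 1, and 21 of them at least 2-fold. The list's median log2 difference from the naive mean was 1.41 in library 1 and 3.95 in library 2. Egr1, a zinc finger factor induced by growth signals, stood at 95.6 and 2523 CPM against 19.4 and 20.8 CPM. Dusp1, a phosphatase that shuts off stress kinases, stood at 624 and 3386 CPM against 95.1 and 151 CPM. Zfp36, whose protein destabilises cytokine transcripts, stood at 1035 and 3605 CPM against 398 and 510 CPM. TAM library 1 lay 2-fold or more above naive for each of these, and library 2 several-fold higher again.

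Other members were above in library 2 alone. Myc, a driver of growth and ribosome production, stood at 165 and 2801 CPM against 155 and 208 CPM, so TAM library 1 lay inside the naive pair. The tumour itself carries a MYC transgene, and the summed level of 18 plasma cell markers was 34084 CPM in TAM library 2 and 4272 CPM in TAM library 1, against 3640 and 4801 CPM. The part of plasma cell RNA in the immediate early and Myc levels of library 2 was not tested. Nr4a2, an orphan nuclear receptor, stood at 8.70 and 341 CPM against 3.58 and 5.05 CPM. Fosl2 was the only member below in a library, at 14.5 CPM in TAM library 1 and 67.4 CPM in TAM library 2 against 34.0 and 33.2 CPM.

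The heat shock list followed the same division. Of 15 genes 14 were described (3 of them through 1 group only), 3 were above in both libraries, and 10 were above in TAM library 2. Hspa1a, an inducible HSP70 chaperone, stood at 6.72 and 211 CPM against 1.62 and 2.04 CPM. Its near-identical neighbour Hspa1b gave 7.21 and 225 CPM against 1.49 and 2.18 CPM, and reads of the 2 genes may have been split between them. Bag3, a co-chaperone of HSP70, stood at 39.1 and 62.9 CPM against 12.7 and 15.1 CPM. The share of counts from mitochondrial genes also differed, at 0.353% and 0.876% in the TAM libraries, against 0.306% and 0.209%. The part of RNA quality in the immediate early and heat shock levels was not tested.

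NF-kB is a transcription factor that is released by cytokine and Toll-like receptor signals and induces its own inhibitors. Of 26 listed subunits and targets 23 were described. Among the 23, 7 were above in both TAM libraries and 14 in library 2, against 1.94% and 6.1% of all described genes. None of them was below in either library. Traf1, an adaptor of TNF receptors, stood at 64.4 and 78.0 CPM against 8.94 and 7.34 CPM (3.26 ± 0.35, adjusted p = 0.183). Nfkbiz, which directs NF-kB to secondary response genes, stood at 188 and 1648 CPM against 31.8 and 36.2 CPM. Icam1, a ligand of leukocyte integrins, stood at 672 and 702 CPM against 263 and 125 CPM. Cd83, a maturation marker of antigen-presenting cells, stood at 698 and 2355 CPM against 218 and 164 CPM. Traf1 and Icam1 were about level between the 2 mice, whereas Nfkbiz and Cd83 were higher in mouse 2.

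Tnf is a cytokine named in the series title and a classical NF-kB target. It stood at 23.7 and 909 CPM in the TAM libraries and at 15.6 and 17.2 CPM in naive macrophages (4.94 ± 1.57, adjusted p = 0.251). TAM library 1 was 1.37-fold over the higher naive library, so the fitted change rested on mouse 2. Il1b, which encodes interleukin-1 beta, differed in both mice, at 322 and 1735 CPM against 40.7 and 51.7 CPM (4.60 ± 0.84, adjusted p = 0.219). Il1a, its close relative, stood at 50.5 and 660 CPM against 47.5 and 21.0 CPM and was above in library 2 only. Il10, an inhibitory cytokine, was likewise above in library 2 only, at 5.78 and 42.4 CPM against 6.76 and 2.56 CPM. Il6, the other cytokine named in the title, did not reach 5 CPM in 2 of the 4 libraries and is not among the described genes. Its level was 1.77 and 27.1 CPM in the TAM libraries and 0.832 and 1.66 CPM in naive macrophages.

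Chemokines recruit leukocytes. Of 21 listed genes 13 were described, 8 were above in both libraries and 0 were below in either, and DESeq2 called 8 higher. Over all described genes 1.94% were above in both, and DESeq2 called 3.86% higher. Among the 13, 4 had passed the level minimum through the TAM libraries alone. The list's median log2 difference from the naive mean was similar in the 2 mice, at 2.79 and 2.49. Ccl4, an attractant of monocytes and T cells, stood at 149 and 413 CPM against 8.32 and 5.30 CPM (5.49 ± 0.67, adjusted p = 0.183). Ccl3, a close relative of Ccl4, stood at 84.9 and 189 CPM against 9.62 and 14.6 CPM. Cxcl16, a membrane-bound chemokine and scavenger receptor, stood at 475 and 182 CPM against 29.8 and 18.5 CPM. In each of these 3 genes the lower TAM library lay several-fold above the higher naive one.

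Cxcl10, a ligand of CXCR3 induced by interferon, stood at 157 and 227 CPM against 14.0 and 9.0 CPM (4.20 ± 1.09, adjusted p = 0.229). Cxcl9, another CXCR3 ligand, stood at 145 and 54.8 CPM against 25.2 and 10.9 CPM. Ccl5, which attracts T cells, stood at 46.7 and 20.8 CPM against 3.29 CPM in each naive library. Cxcl2, a neutrophil attractant, was above in library 2 alone, at 6.63 and 824 CPM against 5.31 and 8.69 CPM. Ccl8, a monocyte attractant, showed the opposite division, at 54.7 and 7.09 CPM against 5.78 and 2.84 CPM.

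**Figure D2:**
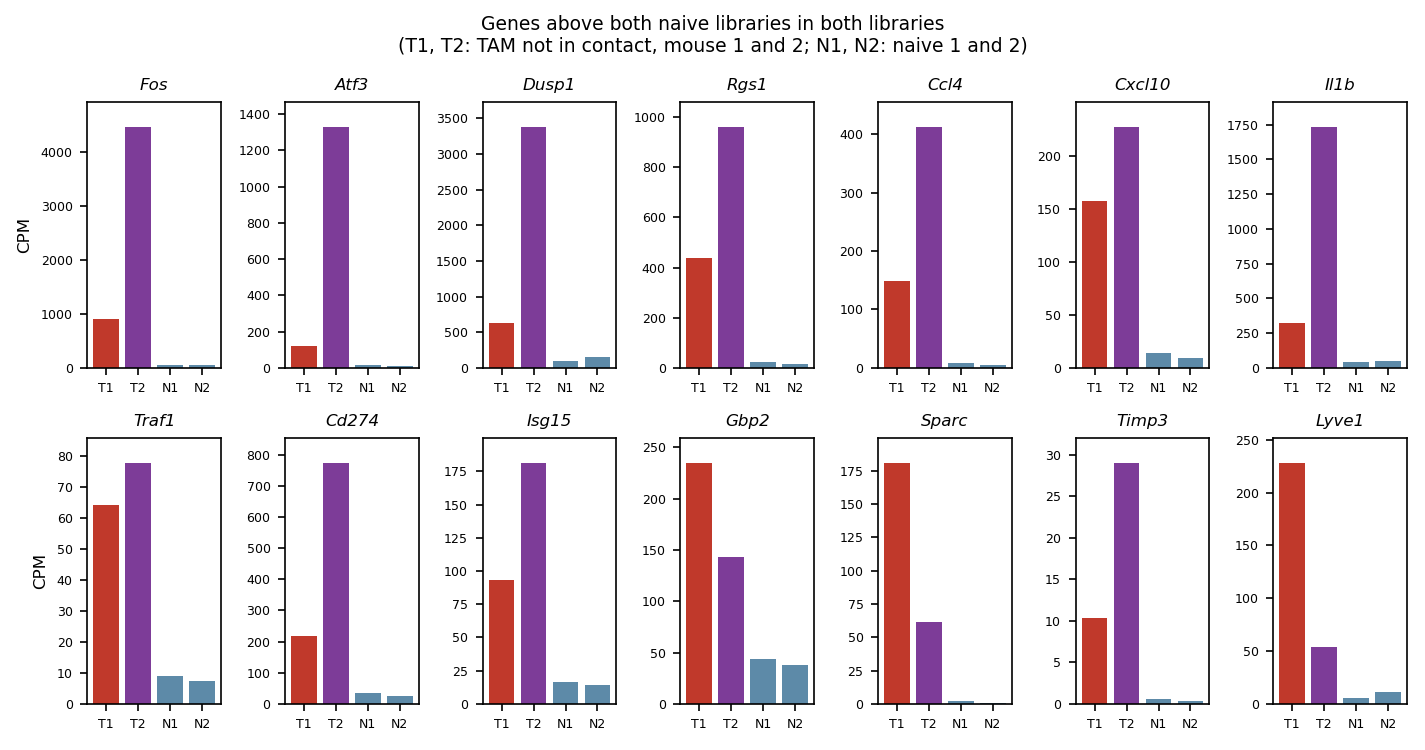
Bars give the CPM of 14 genes in each single library, with TAM not in contact of mouse 1 (T1) and mouse 2 (T2) and naive libraries 1 and 2 (N1, N2). The y axis starts at 0 and differs between panels, and in each panel both TAM bars stand at least 2-fold above both naive bars.

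Interferon-stimulated genes were higher mainly in mouse 1. All 26 listed genes were described. Of these, 7 were above in both libraries and 0 below in both, against 1.94% and 3.18% of all described genes. Another count gave 16 above in TAM library 1 and 8 in TAM library 2, against 4.99% and 6.1% of all described genes. The median log2 difference from the naive mean was 1.45 in library 1 and 0.05 in library 2. Isg15, a ubiquitin-like modifier, stood at 93.1 and 182 CPM against 16.4 and 14.6 CPM (3.28 ± 1.00, adjusted p = 0.245). Oasl1, a relative of the enzymes that sense viral RNA, stood at 176 and 103 CPM against 17.6 and 22.5 CPM. Ifit2, a protein that binds foreign RNA, stood at 588 and 220 CPM against 94.1 and 64.1 CPM. Gbp2, a guanylate-binding protein that attacks vacuoles of intracellular microbes, stood at 235 and 143 CPM against 44.0 and 37.5 CPM. Zbp1, a nucleic acid sensor, stood at 135 and 67.8 CPM against 27.8 and 25.0 CPM.

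Other interferon genes separated only mouse 1 from the naive pair. Irf7, the factor that amplifies interferon production, stood at 1643 and 256 CPM against 350 and 283 CPM. Ifit3, a partner of Ifit2, stood at 270 and 37.5 CPM against 64.7 and 42.4 CPM. In both genes TAM library 2 was at or below the level of naive 2. Irf1, by contrast, was above in library 2 alone, at 273 and 581 CPM against 208 and 206 CPM.

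The stretches before the start of some of these genes are shown for their matches to motifs known for the pathways. Sequences are from RefSeq (GRCm38.p6), run 5′ to 3′ on the strand of the gene and end at the base before its start. In Isg15 (chr4:156200819-156200938), Gbp2 (chr3:142620543-142620662) and Cxcl10 (chr5:92348890-92349109) capitals mark the interferon-stimulated response element (ISRE, searched as GAAA, any 2 bases, GAAA) and the AP-1 motif TGANTCA.
Isg15: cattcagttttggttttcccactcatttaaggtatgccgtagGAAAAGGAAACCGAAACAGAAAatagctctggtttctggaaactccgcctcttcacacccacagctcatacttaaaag
Gbp2: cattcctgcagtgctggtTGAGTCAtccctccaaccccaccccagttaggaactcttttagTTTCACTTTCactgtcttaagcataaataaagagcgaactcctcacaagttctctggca
Cxcl10: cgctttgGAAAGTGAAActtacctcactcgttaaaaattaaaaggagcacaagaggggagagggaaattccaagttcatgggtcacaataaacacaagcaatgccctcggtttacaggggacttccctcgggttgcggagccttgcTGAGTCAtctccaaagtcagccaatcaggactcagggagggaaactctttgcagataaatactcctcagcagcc

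Isg15 had 3 overlapping ISRE matches, and Gbp2 and Cxcl10 had 1 ISRE and 1 AP-1 match each. For the immediate early phosphatases, capitals mark the cyclic AMP response element TGACGTCA in Dusp1 (chr17:26508473-26508622), and 2 adjacent CArG boxes, the sites bound by serum response factor, in Dusp5 (chr19:53529025-53529144). Dusp5 also had a match to the kB motif (GGG, any 2 bases, TTTCC) on the other strand, which ends in the first bases of the CArG boxes and is otherwise in lower case. F11r (chr1:171437441-171437560) is shown for its AP-1 match.
Dusp1: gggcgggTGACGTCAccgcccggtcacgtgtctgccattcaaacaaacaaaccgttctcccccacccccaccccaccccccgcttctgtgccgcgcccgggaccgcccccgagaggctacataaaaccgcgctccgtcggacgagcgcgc
Dusp5: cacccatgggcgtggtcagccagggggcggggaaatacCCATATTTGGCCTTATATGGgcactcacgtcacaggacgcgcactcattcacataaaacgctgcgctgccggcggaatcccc
F11r: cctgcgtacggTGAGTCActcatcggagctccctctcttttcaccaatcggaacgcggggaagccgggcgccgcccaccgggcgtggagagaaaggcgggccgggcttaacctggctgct

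Matches were counted on both strands over the 250 bases before each RefSeq start, with a gene counted once if any of its starts had a match. A stretch was found for 8041 of the 10122 described genes, 143 of the 196 above in both and 246 of the 322 below in both. The AP-1 motif was present at 18.2% of the genes above in both, 10.6% of those below in both, 5.47% of described genes and 7.82% of all 27025 genes with a stretch. The ISRE was present at 7.69%, 1.22%, 3.63% and 3.46% in the same order, and at 10 of the 20 interferon-stimulated genes with a stretch. CArG boxes were present at 4.20%, 2.44%, 1.37% and 1.62%, and TGACGTCA at 4.20%, 0.407%, 3.13% and 1.77%. The kB motif was present at 2.80%, 2.44%, 1.79% and 1.65%, and at 4 of 19 genes of the NF-kB list. Of the 19 immediate early genes with a stretch, 0 had the AP-1 motif, 3 had TGACGTCA and 3 had a CArG box. These are descriptions of letters, with no test, and show no binding.

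Genes of matrix, proteases and adhesion were divided. In the matrix and adhesion list 19 of 22 genes were described and 4 were above in both libraries, among them Sparc and Icam1. Fn1, which encodes fibronectin, stood at 278 and 136 CPM against 36.1 and 50.4 CPM. Itga5, a subunit of the fibronectin receptor, stood at 79.2 and 109 CPM against 23.6 and 34.2 CPM. Vcam1, an adhesion molecule of erythroblastic islands, overlapped between the groups at 5063 and 5805 CPM against 8636 and 4335 CPM.

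Of 20 listed matrix proteases and inhibitors 14 were described, 4 were above in both libraries and 3 below in both. Adamdec1, a secreted metalloprotease of macrophages, had the widest gap between the mice, at 734 and 52.1 CPM against 2.56 and 5.40 CPM (6.80 ± 1.44, adjusted p = 0.219). Mmp14, a membrane-bound collagenase, stood at 447 and 83.5 CPM against 34.2 and 13.9 CPM. Mmp13, a secreted collagenase, stood at 107 and 19.6 CPM against 7.30 and 3.18 CPM. Timp3, an inhibitor of metalloproteases, stood at 10.4 and 29.1 CPM against 0.640 and 0.381 CPM. The 3 below in both were Mmp8, Mmp9 and Mmp25, proteases known from neutrophils. Mmp8 stood at 115 and 820 CPM against 2435 and 4032 CPM.

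Of the checkpoint and costimulation list, 12 of 19 genes were described and 3 were above in both, against 1.94% of all described genes. Cd274, which encodes the T cell inhibitor PD-L1, stood at 217 and 774 CPM against 34.4 and 26.4 CPM (4.15 ± 0.66, adjusted p = 0.219). Havcr2, the checkpoint receptor TIM-3, stood at 159 and 76.5 CPM against 32.2 and 20.04 CPM. Cd276, the B7 family member B7-H3, stood at 24.7 and 10.9 CPM against 2.11 and 1.97 CPM. All 3 genes were picked for being above in both libraries, and Cd276 had reached 5 CPM in the TAM libraries alone. Cd80 and Cd86, the ligands of CD28, did not leave the naive range by 2-fold in either library, with Cd86 at 393 and 252 CPM against 348 and 199 CPM.

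Socs3, an inhibitor of cytokine receptor signalling through STAT3, stood at 123 and 272 CPM against 12.5 and 15.3 CPM (3.96 ± 0.74, adjusted p = 0.219). Slamf7, a receptor of plasma cells, NK cells and activated macrophages, stood at 146 and 174 CPM against 20.5 and 19.6 CPM (3.14 ± 0.62, adjusted p = 0.219). Of 12 described megakaryocyte and platelet genes 3 were above in both, namely Ppbp, Vwf and Clec1b, and 3 of the 12, Ppbp and Vwf among them, had passed the level minimum through 1 group only. Ppbp, a platelet chemokine, stood at 10.2 and 42.5 CPM against 1.07 and 0.485 CPM. The summed level of all 19 megakaryocyte and platelet markers was 535 and 1947 CPM in the TAM libraries and 421 and 360 CPM in naive macrophages, and Thbs1 gave 1366 CPM of the sum in library 2.

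Genes below in both TAM libraries were led by products of granulocytes and B cells. Of the 322 genes, 35 (10.9%) were in a marker list of another cell type, against 1.33% of described genes and 8 of the 196 genes above in both. Epx, the peroxidase of eosinophil granules, lies at chr11:87864000-87875536 (GRCm38, minus strand). It stood at 1.69 and 3.87 CPM in the TAM libraries and at 226 and 723 CPM in naive macrophages (-7.29 ± 0.81, adjusted p = 0.183). The higher TAM library was 51.9-fold under the lower naive one, the widest gap of the 322. The gap was wider in mouse 1 for most genes below in both, since TAM library 2 was the higher of the TAM pair at 245 of the 322.

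In the list of eosinophil, basophil and mast cell genes 16 of 19 were described, 4 of them through 1 group only, 11 were below in both libraries and 0 above in both. Prg2, the eosinophil major basic protein, stood at 13.5 and 31.02 CPM against 336 and 991 CPM (-4.77 ± 0.74, adjusted p = 0.219). Mcpt8, a protease of basophils, stood at 0.653 and 8.76 CPM against 129 and 222 CPM (-5.11 ± 1.18, adjusted p = 0.219). Prss34, another basophil protease, had 0 counts in TAM library 1, which allows up to 0.0725 CPM by counting error alone, and 84.1 CPM in TAM library 2, against 673 and 1161 CPM. The list's summed level was 348 and 1407 CPM against 3239 and 4902 CPM, and Ear6 was the other member at 0 in TAM library 1. Il5ra, the interleukin-5 receptor of eosinophils, went the other way in library 2, at 0.121 and 80.8 CPM against 3.24 and 8.03 CPM.

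Neutrophil genes were all described (18 of 18), and 12 were below in both libraries and 0 above in either. Their summed level was 10296 and 21625 CPM in the TAM libraries and 57285 and 89830 CPM in naive macrophages. Ltf, the iron-binding granule protein lactoferrin, stood at 2102 and 6702 CPM against 17080 and 27030 CPM (-2.20 ± 0.78, adjusted p = 0.280). S100a8, a subunit of calprotectin, stood at 517 and 1191 CPM against 3671 and 5268 CPM (-2.26 ± 0.57, adjusted p = 0.227). Elane, the elastase of primary granules, overlapped between the groups at 464 and 195 CPM against 356 and 1200 CPM. Prtn3, a related protease, was also within the 2-fold range in both libraries, and Mpo and Ctsg were below in library 2 only. No neutrophil marker was at 0 in any of the 4 libraries.

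B cell genes divided by stage. Of 18 listed genes 13 were described and 8 were below in both libraries. Among the 13, 4 had passed the level minimum through the naive libraries alone, Igll1 among them. Igll1, a part of the surrogate light chain of pre-B cells, stood at 0.363 and 0.773 CPM against 18.5 and 21.0 CPM (-4.99 ± 0.61, adjusted p = 0.183). Ms4a1, which encodes CD20, stood at 2.68 and 7.67 CPM against 62.4 and 92.7 CPM (-3.78 ± 0.58, adjusted p = 0.219). Cd79b and Cd22 did not leave the naive range by 2-fold, and the summed level of all 18 genes was 541 and 731 CPM against 932 and 971 CPM. Rag1 and Cr2 were each at 0 in 1 TAM library. Spib, a transcription factor of B and plasmacytoid dendritic cells, stood at 7.88 and 7.63 CPM against 47.0 and 44.0 CPM.

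Some progenitor and red cell genes were below in both libraries, as were 3.18% of all described genes. Of 9 described stem and progenitor genes, 7 were below in TAM library 1 and 3 in both, Kit, Myb and Gata2. Kit and Gata2 are also in the list of eosinophil, basophil and mast cell genes. Among the 9, 2 had passed the level minimum through 1 group only. Myb, a transcription factor of immature blood cells, stood at 24.1 and 46.3 CPM against 109 and 259 CPM. Of 17 described erythroid genes 2 were below in both, 10 were below in TAM library 1 (11.1% of all described genes were) and 15 were within the naive range in TAM library 2. Slc4a1, the anion exchanger of red cells, stood at 7.42 and 28.7 CPM against 131 and 108 CPM. The part of other cells in the sorted samples in these differences was not tested.

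Enzymes and receptors for lipid mediators were divided. Of 23 eicosanoid genes 17 were described, 5 were below in both libraries and 0 above in both. Over all described genes 3.18% were below in both and 1.94% above in both. In a list of this size a count of 0 is near the latter share. Within the naive range were 8 of the 17 in library 1 and 11 in library 2. Alox15, 1 of the 5, is also in the eosinophil list. Alox5, the first enzyme of leukotriene synthesis, stood at 130 and 145 CPM against 364 and 585 CPM (-1.65 ± 0.33, adjusted p = 0.219). Ltb4r1, the receptor for leukotriene B4, stood at 42.9 and 65.7 CPM against 241 and 337 CPM. Ptgir and Ptger2, receptors for prostacyclin and prostaglandin E2, stood at 16.4 and 12.1 CPM against 53.2 and 55.3 CPM and at 8.99 and 10.1 CPM against 23.3 and 26.4 CPM. Ptgs1, which encodes cyclooxygenase 1, lay in the naive range at 366 and 281 CPM against 354 and 239 CPM.

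Of the 26 resident macrophage genes, all described, 22 were within the naive range or left it in 1 library only. Below in both libraries were Cd5l, Timd4 and Marco. Cd5l, a secreted protein of tissue macrophages that limits cell death, stood at 213 and 200 CPM against 1435 and 614 CPM (-2.17 ± 0.51, adjusted p = 0.222). Timd4, a receptor for phosphatidylserine on dying cells, stood at 17.5 and 30.4 CPM against 141 and 72.5 CPM (-2.02 ± 0.60, adjusted p = 0.244). Marco, a scavenger receptor, stood at 0.556 and 0.161 CPM against 8.32 and 7.65 CPM (-4.30 ± 0.87, adjusted p = 0.219). The 2 TAM libraries were close to each other for Cd5l, and naive 1 was more than 2-fold over naive 2.

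Lyve1, a hyaluronan receptor of perivascular macrophages, was the single member above in both, at 228 and 53.7 CPM against 5.97 and 11.7 CPM. Genes of iron and heme recycling were mostly within range, with 21 of 22 described and Cp alone above in both. Slc40a1, the iron exporter ferroportin, stood at 2974 and 3353 CPM against 8043 and 3632 CPM. Cd163, the receptor for hemoglobin bound to haptoglobin, was below in mouse 1 only, at 79.2 and 516 CPM against 1256 and 568 CPM. For both genes naive 1 was the highest library.

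Gfra4 and Scd1 were further genes below in both that lie outside the lists of other cells. Gfra4, a receptor subunit for a GDNF family ligand, stood at 0.629 and 1.55 CPM against 43.8 and 31.9 CPM (-5.00 ± 0.54, adjusted p = 0.183). Scd1, which makes monounsaturated fatty acids, stood at 1.43 and 2.87 CPM against 24.7 and 33.7 CPM (-3.64 ± 0.71, adjusted p = 0.219). Scd2, its relative, stayed within the 2-fold range at 51.8 and 56.2 CPM against 94.5 and 78.5 CPM.

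**Figure D3:**
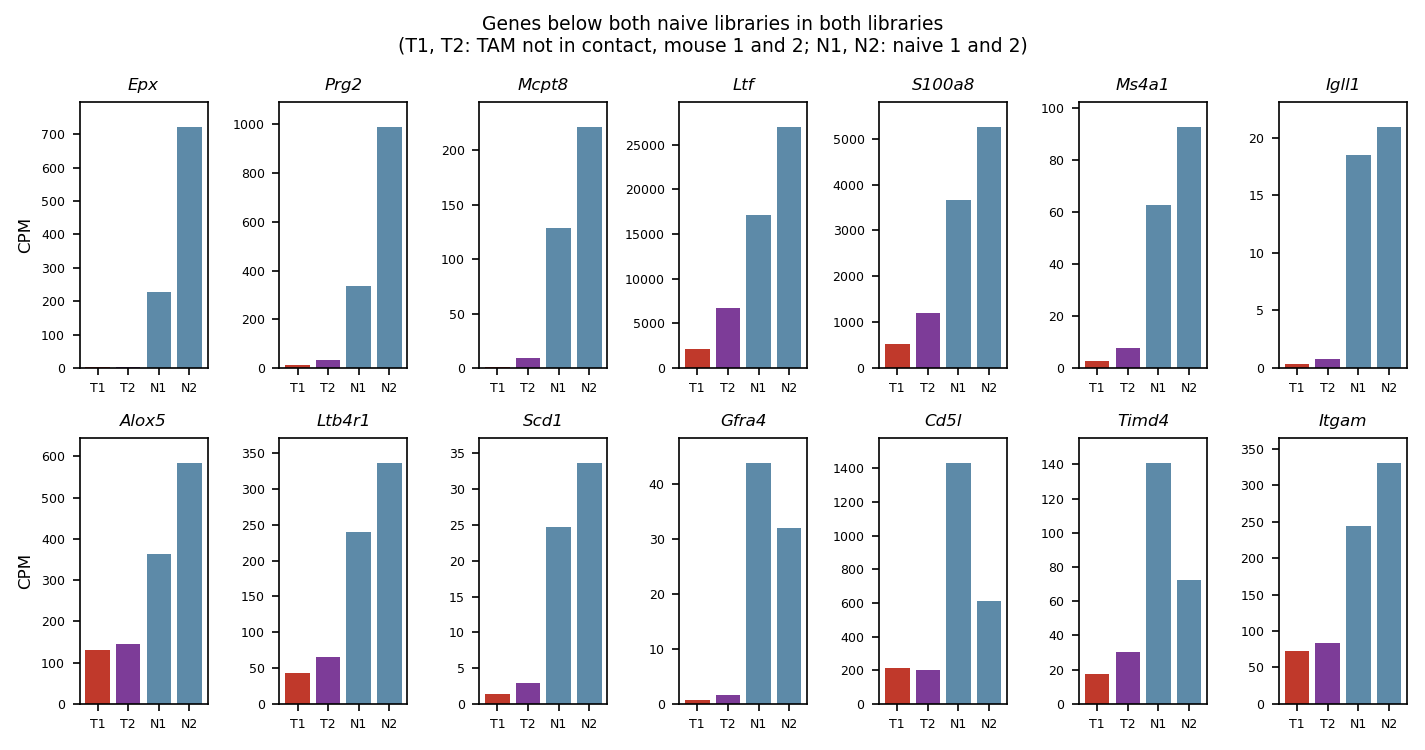
Bars give the CPM of 14 genes in each single library, with TAM not in contact of mouse 1 (T1) and mouse 2 (T2) and naive libraries 1 and 2 (N1, N2). The y axis starts at 0 and differs between panels, and in each panel both TAM bars stand at least 2-fold below both naive bars.

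TAM library 1 alone lay above the naive pair at a set of monocyte and antigen presentation genes. Of 14 described MHC class II genes, 7 were above in library 1 and 0 in library 2, against 4.99% and 6.1% of all described genes. In a list of this size a count of 0 is near the latter share. The list's median log2 difference from the naive mean was 1.42 and -0.07. H2-Ab1, a class II chain that displays peptides to T cells, stood at 4377 and 782 CPM against 981 and 581 CPM. Cd74, the invariant chain of class II molecules, stood at 15747 and 4042 CPM against 3348 and 2064 CPM. H2-Ob, a subunit of the peptide-loading inhibitor found in B cells, was below in both at 7.83 and 9.69 CPM against 21.6 and 35.7 CPM.

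Cd300e, a receptor of monocytes that patrol vessels, stood at 922 and 31.8 CPM against 20.4 and 24.2 CPM. Fcgr4, an activating receptor for IgG, stood at 995 and 66.0 CPM against 70.8 and 59.4 CPM. Ms4a4c stood at 253 and 20.5 CPM against 14.6 and 18.6 CPM, and Itgax, the integrin chain CD11c, at 351 and 58.3 CPM against 38.7 and 17.1 CPM. In all 4 genes TAM library 1 was more than 2-fold over each of the other 3 libraries, and for Itgax naive 2 was also more than 2-fold under naive 1. Of the 14 described monocyte markers 5 were above in library 1 and 1 in library 2, against 4.99% and 6.1% of all described genes. The summed level of all 15 listed monocyte markers was 4281 and 2946 CPM against 4822 and 7676 CPM. Chil3, the 1 marker below in both libraries, gave 778 and 1135 CPM of these sums against 3098 and 5188 CPM. Ccr2 and Ly6c2, which mark classical monocytes, were not above in either library.

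Lysosomal genes were higher in mouse 1 than in mouse 2 at 30 of 33 described genes, and 5 were above naive in library 1, against 4.99% of all described genes. Ctss, a protease that cuts the invariant chain, stood at 4080 and 1227 CPM against 1195 and 696 CPM. Ctsz, another cathepsin, stood at 1998 and 889 CPM against 813 and 533 CPM. Gla, the lysosomal alpha-galactosidase, was the only member above in both, at 55.3 and 81.3 CPM against 15.3 and 16.9 CPM.

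Plasma cell and secretory genes were above the naive pair mainly in TAM library 2. Of 16 described plasma cell genes 13 were above in library 2 and 2 in library 1, against 6.1% and 4.99% of all described genes. The summed level of all 18 listed genes was 4272 and 34084 CPM in the TAM libraries and 3640 and 4801 CPM in naive macrophages. Igkc alone gave 23693 CPM of the sum in library 2. Sdc1, which encodes CD138, stood at 9.99 and 417 CPM against 9.49 and 10.8 CPM. Irf4, a transcription factor of plasma cells and of some macrophages, stood at 9.26 and 260 CPM against 13.5 and 16.5 CPM. Igkc, the kappa light chain constant gene, stood at 1063 and 23693 CPM against 1364 and 1768 CPM. In each of these genes TAM library 1 was level with or below the naive libraries.

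Genes of the unfolded protein response, by which secretory cells adjust protein folding, followed them. Of 25 listed genes 24 were described, 14 were above in library 2, 2 in library 1 and 2 in both. Edem1, which extracts misfolded glycoproteins, stood at 341 and 1505 CPM against 260 and 316 CPM. Creld2, a chaperone-like protein of the endoplasmic reticulum, stood at 118 and 503 CPM against 59.0 and 80.7 CPM. Atf6, a sensor of the response, was above in both mice at 163 and 229 CPM against 61.5 and 52.6 CPM. Edem1 and Creld2 belong to both lists used here, and the part of plasma cell RNA in these levels was not tested.

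Further genes above in library 2 alone were Cyp2b10, a drug-metabolising enzyme, at 7.91 and 1131 CPM against 8.38 and 7.86 CPM, and Epcam, an adhesion molecule of epithelial cells, at 5.34 and 405 CPM against 4.18 and 4.50 CPM. Both were within 2-fold of the naive pair in mouse 1. For neither gene did more than 1 library of the 4 exceed 10 CPM.

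On opposite sides of the naive pair lay 38 genes that were below in library 1 and above in library 2, and 9 with the reverse order. Jchain, which joins secreted immunoglobulin into polymers, stood at 104 and 3500 CPM against 335 and 450 CPM. Chac1, an enzyme induced by the unfolded protein response, stood at 0.169 and 36.0 CPM against 4.16 and 5.05 CPM. Thbs1, the platelet and macrophage protein thrombospondin 1, stood at 77.2 and 1366 CPM against 182 and 156 CPM. In the reverse order, Fcrl5, a receptor of the Fc receptor family, stood at 397 and 1.256 CPM against 5.53 and 4.29 CPM. Cd72, a coreceptor of B cells that macrophages also carry, stood at 741 and 16.9 CPM against 43.9 and 62.6 CPM. Mpeg1, a pore-forming protein of macrophages, stood at 3899 and 152 CPM against 1574 and 766 CPM.

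**Figure D4:**
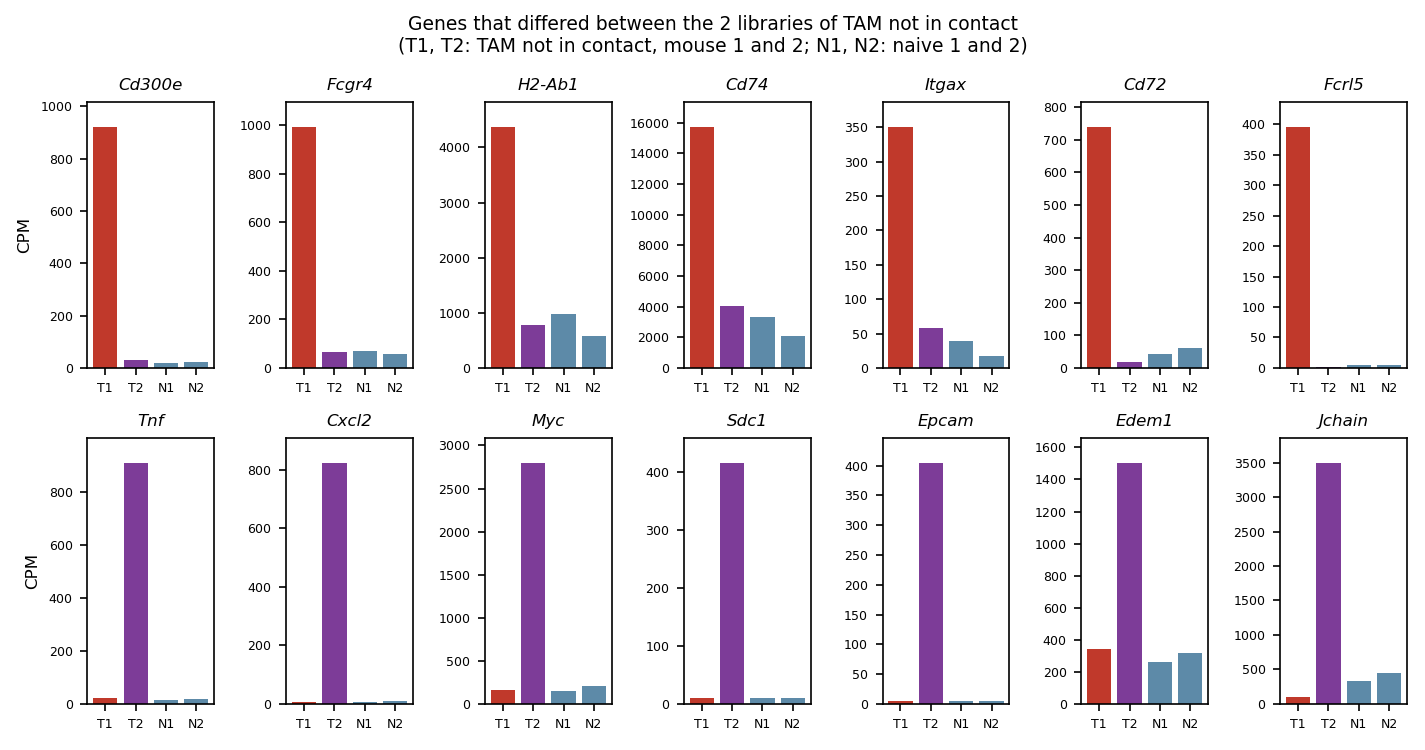
Bars give the CPM of 14 genes in each single library, with TAM not in contact of mouse 1 (T1) and mouse 2 (T2) and naive libraries 1 and 2 (N1, N2); the y axis starts at 0 and differs between panels. The upper 7 genes stand above the naive pair in T1 and the lower 7 in T2.

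Below in 1 library alone, Slfn4, a gene of the Schlafen family, stood at 4.21 CPM in TAM library 1 and 327 CPM in TAM library 2 against 301 and 594 CPM. Car1, a carbonic anhydrase of red cells, had 0 counts in TAM library 1 and 20.2 CPM in TAM library 2 against 13.2 and 19.2 CPM. In TAM library 2, Nudt7, a peroxisomal hydrolase of coenzyme A, stood at 3.12 CPM with 8.10 CPM in TAM library 1, against 16.4 and 30.4 CPM. Bcl11a, a transcription factor of B cells and dendritic cells, stood at 15.5 and 3.74 CPM against 17.7 and 23.2 CPM.

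Several housekeeping lists had no gene 2-fold beyond the naive pair in both libraries, against 1.94% above and 3.18% below over all described genes. In lists of this size a count of 0 is near those shares and does not set the lists apart. Among 26 described cell cycle and replication genes the count was 0. The list's median log2 difference was -0.77 and -0.56 against -0.09 and -0.16 over all described genes. Mki67, a marker of cycling cells, stood at 33.1 and 89.9 CPM against 86.0 and 121 CPM and was the only member below in a library. Of 27 nuclear genes of the respiratory chain, 22 genes of ribosome biogenesis and 15 of cholesterol synthesis, 0 were 2-fold above or below in both libraries. Top2a, the DNA topoisomerase of dividing cells, stood at 125 and 161 CPM against 217 and 319 CPM, below both naive libraries by less than 2-fold.

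**Figure D5:**
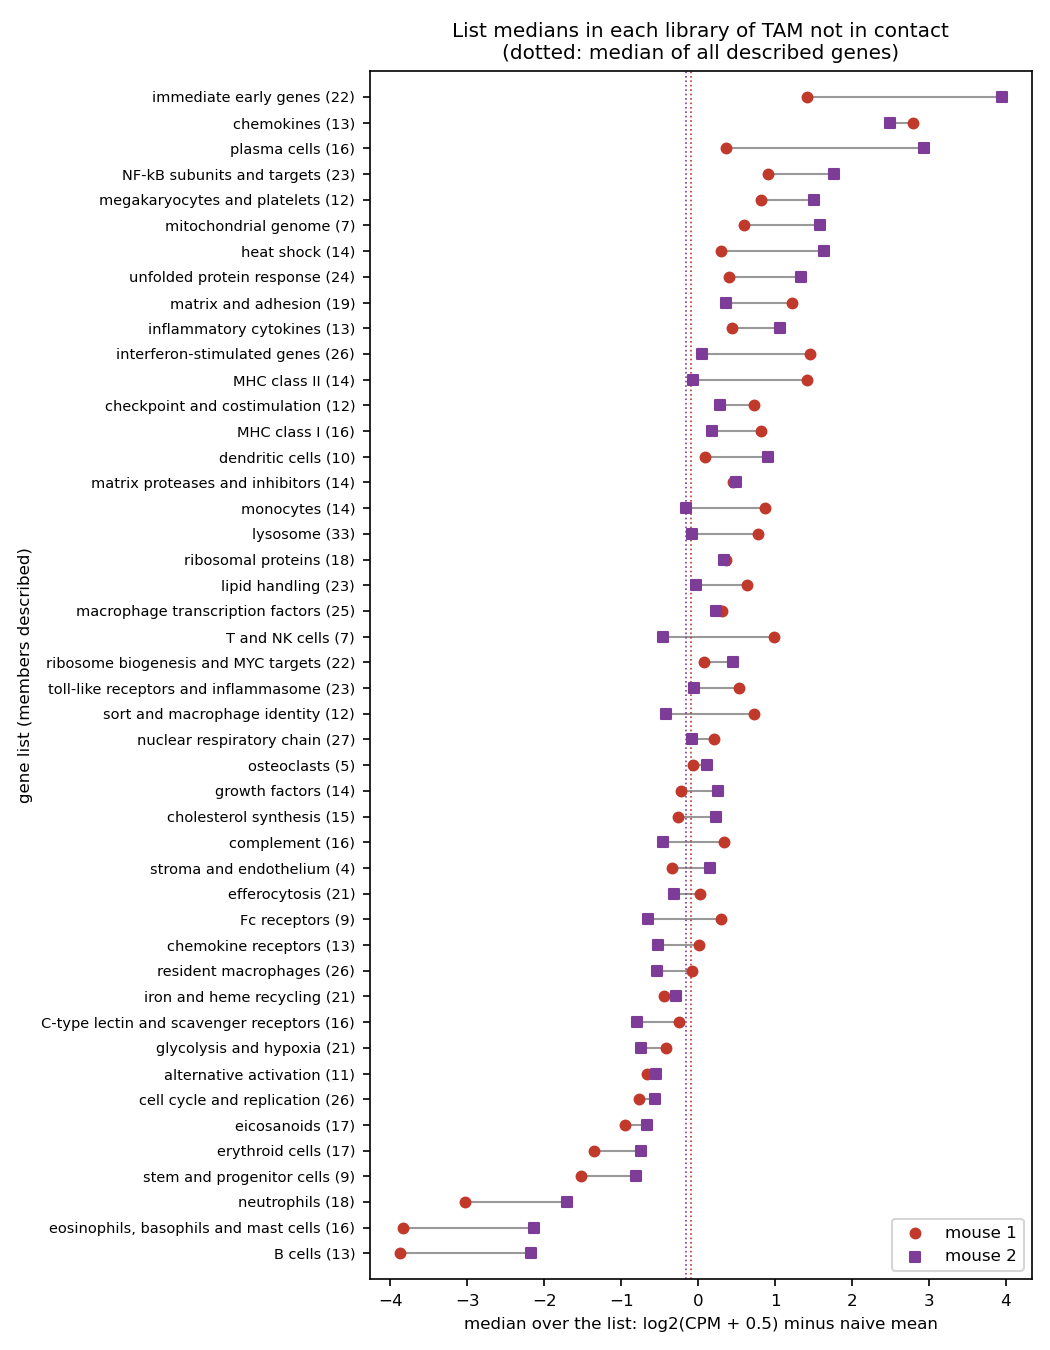
Each row is a gene list, with the number of described members in parentheses, and the x axis gives the median log2 difference from the naive mean (CPM + 0.5) in TAM library 1 (circles) and TAM library 2 (squares). Immediate early genes (1.41 and 3.95) and chemokines (2.79 and 2.49) lie at the top, and neutrophil, eosinophil and B cell lists at the bottom. Dotted lines mark the medians of all described genes.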

How the data were processed

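The table deposited by the authors holds unnormalized counts of reads for each gene from SMART-Seq v4 libraries. STAR and featureCounts, DESeq2, mm10 and GRCm38 appear in the submitters' processing notes with no role or order. Annotation, strand setting and treatment of reads with several positions are unknown, and the kit does not mark strand. Identifiers were matched without version to GENCODE M21 (47224 of 47643), whose coordinates cover whole genes.

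Libraries held 28887725 to 46873056 counts, so a count of 0 allows 3 counts, or 0.064 to 0.104 CPM (counting error only). CPM use the library total. Each library was placed against the naive pair at 2-fold with 0.5 CPM added. One edgeR 4.0.16 quasi-likelihood model (TMM, filterByExpr, 15522 genes, 3 residual degrees of freedom) was fitted to all 6 macrophage libraries, so TAM in contact shared the spread estimate. Fold changes are edgeR log2 values with SE, and their p-values were adjusted by Benjamini-Hochberg over all genes. DESeq2 1.42.0, limma 3.58.1, other scalings, filters and left-out libraries were alternatives. Scripts were tested on simulated data. Software was R 4.3.3 and Python 3.11.15 with pandas 2.3.3, matplotlib 3.10.9 and numpy 2.4.6.

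The members and the 46 gene lists were chosen with earlier results of these data known. The rule named the sort and cytokine genes, up to 12 protein-coding genes per direction with the widest gap in both libraries and at least 20 CPM, 6 per other placement, 4 per list, and the 3 most abundant markers. Other genes were named after their values were seen. Of the 238 genes named by the rule 92 overlap another annotated gene, among those in the text Cxcl10, Negr1, Atf3, Slamf7, Il1b, Cd274, Gfra4, Mcpt8, Ms4a1, Itgam and Cd72, so their reads may be shared. Of the listed genes, 2 were not analysed here, and some results are not reported here.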

Additional observations from a re-analysis of the deposited data

How the results depend on the processing

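The edgeR count of 0 called genes was also 0 with limma-voom, bias-adjusted quasi-dispersions, RLE size factors, the described genes only, the 4 libraries alone, no immunoglobulin genes, and without either naive library or either library of TAM in contact. It was 1247 with DESeq2 and 1548 with no filter on low counts. Leaving out 1 of the 6 libraries gave 0 to 477 calls, with 274 without TAM library 2 and 477 without TAM library 1. The remaining TAM library is then assumed to vary like the other groups. A replicate block gave 0 calls. The naive numbers do not pair with the mouse numbers, and the deviations of TAM library 1 and naive 1 correlated at 0.089 over 15522 genes, and those of TAM library 1 and TAM in contact of mouse 1 at 0.152. The labels give TAM not in contact and TAM in contact the same mouse 2, but Xist stood at 40.4 and 0 CPM and the Y-linked Ddx3y at 0.258 and 88.4 CPM in these 2 libraries, so the block joins libraries whose sex-linked genes differ.

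The count above in both, 196, was 375 at 1.5-fold, 53 at 4-fold and 323 with a minimum of 1 CPM, and left-out libraries gave 232 to 617. The count below in both, 322, was 794, 49 and 487, and left-out libraries gave 413 to 1125. Leaving out naive 1 gave 376 and 692. TMM totals gave 244 above and 259 below, and totals without immunoglobulin genes 215 and 267, which moves the split between the directions. The sign of each fold change printed held under all alternatives run. The edgeR median of the MHC class II list, 0.91, was -0.07 without TAM library 1, that of the lysosome list went from 0.55 to -0.03, that of the monocyte list from 0.42 to -0.15, and that of the resident macrophage list from -0.15 to 0.47 without naive 1. The cause was not tested. At these depths 3 counts are at most 0.104 CPM, far under the 5 CPM minimum.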

Other observations

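Of the 196 genes at which both TAM libraries were above naive, 4 more are given here. Cdkn1a, the cell cycle inhibitor p21, stood at 26.5 and 75.3 CPM against 6.46 and 6.23 CPM. Pmaip1, which encodes the cell death inducer NOXA, stood at 122 and 213 CPM against 25.9 and 22.9 CPM. Lmna, a protein of the nuclear lamina, stood at 187 and 524 CPM against 44.8 and 30.5 CPM. Gdf15, a stress-induced hormone of the TGF-beta family, stood at 81.1 and 1213 CPM against 32.3 and 11.7 CPM. All 4 were higher in mouse 2. Gdf15 was named by the rule through the growth factor list, and the other genes were chosen after their values were seen.

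Ecm1, an extracellular matrix protein, stood at 236 and 52.4 CPM against 9.11 and 8.65 CPM, and Spon1, the matrix protein spondin 1, at 118 and 9.53 CPM against 1.32 and 1.18 CPM. Cxcl14, a chemokine, stood at 25.9 and 5.35 CPM against 0.235 and 0.242 CPM. All 3 were higher in mouse 1, and they too were chosen after their values were seen. Spon1 and Cxcl14 had reached 5 CPM in the TAM libraries alone. Among genes below in both, the lectin receptor Cd209f stood at 1.33 and 18.4 CPM against 189 and 78.8 CPM and its neighbour Cd209g at 0.218 and 1.51 CPM against 26.2 and 16.3 CPM. Cd209g had reached 5 CPM in the naive libraries alone. Near-identical members of the Cd209 family may share reads. G6pdx and Pgd, enzymes of the pentose phosphate pathway, stood at 281 and 277 CPM against 693 and 834 CPM and at 263 and 287 CPM against 615 and 874 CPM, with close values in the 2 mice.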
